A study of Mus musculus with 30 samples.

Results

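Ccr7, S1pr1, Klf2, Il7r, Tcf7, Lef1 and Cxcr4 are 7 genes by which lymphocytes enter, leave and wait in lymphoid organs and by which naive T cells are kept at rest. They were followed here in PBMC, the mononuclear cells of peripheral blood (lymphocytes and monocytes), of mice given oleic acid (OA) or physiological serum. Every non-control probe of the array that carries one of the 7 gene names was taken, which gave 9 probes among 55681. After a filter on dim probes, 25137 genes or unnamed transcripts were tested, and all 7 genes were among them. The arrays are 1-colour Agilent expression arrays, and each level is the log2 of the background-corrected probe signal minus the 75th percentile of its array, so that a level of 0 lies at that percentile.

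All mice were female C57BL/6 animals of 6 weeks, anesthetised with Xylazine and Ketamine, and all received 200 µl into the tail vein. OA was dosed at 1.2 µl/g, a treatment used in rodents to produce acute lung injury, and serum mice received physiological serum in its place. Blood was drawn with EDTA from an eye vein, and PBMC were isolated on Ficoll. OA groups held 3, 3, 3, 2, 3 and 3 arrays at 1, 1.5, 3, 4, 18 and 24 h, and serum groups held 3, 3, 2, 1, 2 and 2 arrays at the same times. The design text counts 30 mice for the 30 arrays, so each array was taken as 1 mouse. The serum group at 4 h is a single array, and its spread is assumed to be that of the other groups.

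A naive T cell circulates between blood and lymph nodes. The chemokine receptor Ccr7 brings it into the node towards the ligands CCL19 and CCL21, and the sphingosine-1-phosphate receptor S1pr1 lets it leave again. Klf2 is a zinc finger transcription factor that maintains S1pr1 in resting T cells. Il7r encodes the alpha chain of the interleukin-7 receptor, a survival receptor that is lost upon activation. Tcf7 (TCF-1) and Lef1 are related HMG box factors that partner beta-catenin and mark naive and memory precursor T cells. Cxcr4, the receptor of the chemokine CXCL12, retains leukocytes in bone marrow and is carried by B cells, monocytes and neutrophils as well as by T cells.

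Among the 7 genes, Cxcr4 and Il7r varied together least across the arrays (Pearson r = 0.239), and their upstream sequences are shown for this reason. RefSeq promoter entries (GRCm38.p6) matched 5 of the 7 genes in 9 windows of 300 bases, 250 before and 50 after a start. There is no entry for Ccr7 and S1pr1. Both strands were searched for CACCC (the core of Krüppel-like factor sites), TGTTTAC (a forkhead core), CTTTGA and CTTTGT (cores of TCF/LEF sites). CACCC lies in 57.5% of all 32851 promoter windows, TGTTTAC in 3.65%, CTTTGA in 16% and CTTTGT in 18.7%. The Cxcr4 window (minus strand, chr1:128592300-128592549) held 1 CACCC, in capitals, and none of the other 3 motifs. The Il7r window (minus strand, chr15:9529877-9530126) held none of the 4. Both are shown 5′ to 3′ over the 250 bases before the start.
Cxcr4: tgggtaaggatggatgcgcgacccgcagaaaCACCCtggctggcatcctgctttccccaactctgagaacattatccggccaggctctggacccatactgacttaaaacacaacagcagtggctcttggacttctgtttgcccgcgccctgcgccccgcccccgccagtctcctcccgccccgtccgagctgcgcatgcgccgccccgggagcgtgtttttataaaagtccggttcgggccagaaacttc
Il7r: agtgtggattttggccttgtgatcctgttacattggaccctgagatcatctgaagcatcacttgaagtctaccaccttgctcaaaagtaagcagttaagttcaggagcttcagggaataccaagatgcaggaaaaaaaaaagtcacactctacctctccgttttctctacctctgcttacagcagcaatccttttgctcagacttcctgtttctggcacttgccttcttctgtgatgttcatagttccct
In the other windows, Klf2 had 1 CACCC, the 2 Tcf7 windows had 2 each, and the 4 Lef1 windows had 3, 3, 3 and 1. The first 2 Lef1 windows (chr3:131110047-131110346 and chr3:131110073-131110372) overlap and hold the same 3 matches. The fourth Lef1 window also held 2 CTTTGA and 1 CTTTGT, and the second Tcf7 window 1 TGTTTAC. A match is only a description of these letters.

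The probes lie in mm9, with no exon or untranslated region annotation of that build used here. The Ccr7 probe lies on chr11:99005551-99005610, the S1pr1 probe on chr3:115414020-115414079, the Klf2 probe on chr8:74845137-74845196, the Il7r probe on chr15:9435976-9436035 and the Cxcr4 probe on chr1:130485079-130485138. Tcf7 has 2 probes, on chr11:52066114-52066173 and chr11:52066738-52066797. Lef1 also has 2, on chr3:130926200-130926259 and on chr3:130907851-130926012, where the second spans a junction between exons. The brighter probe represents its gene, and the other is given beside it. The first 30 of the 60 bases are shown for both Tcf7 probes, because they gave different sizes at 4 h, and for Cxcr4.
Tcf7, brighter probe: ttttttcattctcgctgtagatagcctgaa
Tcf7, dimmer probe: ccaatacttcttggaccaagaatacctggt
Cxcr4: aggaagaaactgaacattccagaatgtgtg
All 9 probes were well above background on all 30 arrays, and none was saturated.

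Before the values, 3 arrays need a remark, because several results turn on them. These are replicate 1 of serum at 24 h, replicate 2 of OA at 4 h and replicate 3 of serum at 1.5 h. They correlated less with the other arrays (median r 0.813, 0.850 and 0.895). Their long intergenic RNA probes gave more signal (log2 -1.86, -2.06 and -3.05) than those of the other arrays (-4.62 to -3.17). This intergenic signal is the mean over those probes minus the array's median over probes well above background on all 30 arrays. It is not on the percentile scale. The share of probes well above background ranged from 34.5% to 64.4% over the 30 arrays. The T cell, B cell, platelet and erythroid marker lists were above background for 17 of 17, 12 of 12, 7 of 8 and 8 of 8 genes on every array, and the monocyte and neutrophil lists for 8 of 10 and 9 of 10. The PBMC carried lymphocyte and monocyte markers, and also neutrophil, platelet and red cell transcripts. In these bulk samples, fewer cells of a type and less RNA per cell cannot be told apart.

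None of the 7 genes passed an adjusted p of 0.05 (limma, Benjamini-Hochberg over all features) between OA and serum at any of the 6 times, in the mean of the 6 differences, or between the first hours and the next day. The background differs widely between times. At 24 h, 13.1% of all features were called higher and 16.5% lower in OA mice, whereas no feature was called at 1, 1.5, 3, 4 or 18 h, and 0.00398% were called lower in the mean of the 6 times. At an unadjusted p under 0.05, Ccr7 and S1pr1 were higher in OA mice at 24 h (22.8% of all features), Cxcr4 at 1.5 h (3.85%) and Cxcr4 in the mean of the 6 times (5.72%). The 2 members of 7 at 24 h are a share near the background. At 1.5 h all 7 differences lay above 0, as did 52.5% of all features, although Klf2 and Tcf7 lay below 0 in 5 and 6 of 14 alternative settings and Il7r, Lef1 and S1pr1 in 1 each.

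**Figure D1:**
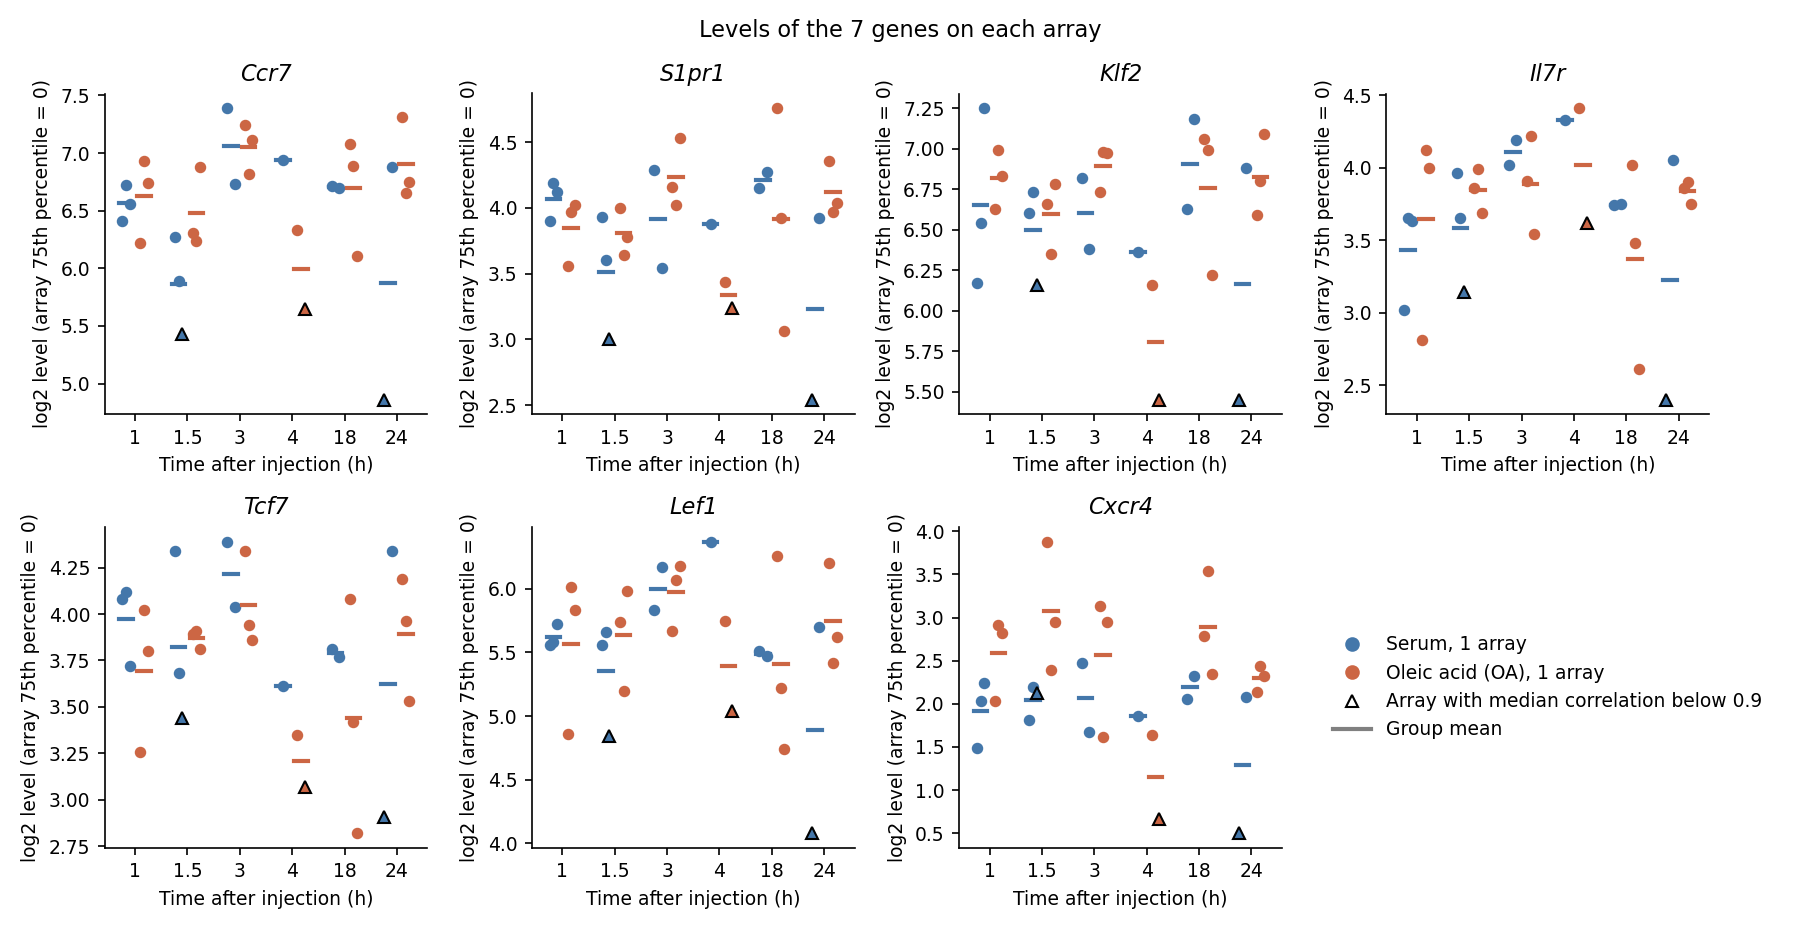
Log2 level of each gene relative to the 75th percentile of its array (vertical axes) against the time after injection in hours (horizontal axes, evenly spaced categories), with 1 point per array, serum and OA side by side, and bars for group means. The serum array at 24 h that lies lowest for 6 of the 7 genes, and the OA arrays of Cxcr4 above its serum arrays, can be read from it.

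Cxcr4 gave the most frequent separation between OA and serum arrays. Of 17 OA arrays, 8 stood above the highest of the 13 serum arrays, which spanned 0.50 to 2.47 (median 2.06). Among the 8 were OA 1 h replicates 2 and 3, OA 3 h replicate 3 and OA 18 h replicate 1. These lay on the slide that held only OA arrays and was scanned on the second day. The others, OA 1.5 h replicates 1 and 3, OA 3 h replicate 1 and OA 18 h replicate 2, lay on slides with both treatments. The part of the slide in this count was not tested. The OA arrays spanned 0.66 to 3.88 (median 2.44). A count of 8 or more, a limit chosen after the Cxcr4 value was seen, was reached by 1.03% of the features with a value on every array. The same count was 3 for S1pr1, 1 for Il7r and 0 for Ccr7, Klf2, Tcf7 and Lef1.

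At 1 h, Cxcr4 stood at 1.49, 2.03 and 2.24 in serum arrays and at 2.03, 2.91 and 2.82 in OA arrays. At 1.5 h the serum arrays gave 1.81, 2.20 and 2.12 and the OA arrays 3.88, 2.39 and 2.95. At 3 h they gave 2.47 and 1.67 against 3.13, 1.62 and 2.95. The groups were apart at 1.5 h, where all 3 OA arrays lay above all 3 serum arrays, and overlapped at 1 and 3 h. At 4 h the order was turned, with 1.86 in the serum array against 1.64 and 0.66. At 18 h the serum arrays gave 2.06 and 2.32 and the OA arrays 2.79, 3.54 and 2.35. At 24 h the serum arrays gave 0.50 and 2.08 and the OA arrays 2.14, 2.44 and 2.32. All OA arrays lay above both serum arrays at 18 and at 24 h. Groups did not overlap in this direction for 16.7%, 2.68% and 25.8% of all features at 1.5, 18 and 24 h.

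The Cxcr4 difference (OA minus serum, log2) was 0.67, 1.03 ± 0.47 (SE), 0.49, -0.71, 0.70 and 1.01 ± 0.53 at 1, 1.5, 3, 4, 18 and 24 h. At 1.5 h its 95% interval was 0.04 to 2.01 (adjusted p = 0.492, limma). Averaged over the 6 times, Cxcr4 stood at 2.43 in OA and 1.90 in serum groups, a difference of 0.53 ± 0.22 (95% interval 0.07 to 1.00, adjusted p = 0.318, limma). The mean was above 0 under all 14 alternative settings (0.33 to 0.64) and with each array left out in turn (0.40 to 0.66), and none of these reached an adjusted p of 0.05 (lowest 0.0691). Without serum 24 h replicate 1 it was 0.40. Within slides that held both treatments, with 1 or 2 arrays a side, the Cxcr4 difference was 0.17 in the 1 h group, 0.19 and 0.83 on separate slides for 1.5 h, and -0.05, -1.2 and 1.22 for the next 3 times (3, 4 and 18 h). No slide held both treatments at 24 h. The OA difference did not pass a test of differing between the times (limma F test, adjusted p = 0.633), a test passed by 0.00796% of all features. The 6 OA groups differed between times at an unadjusted p under 0.05, as in 18.3% of all features, but not after adjustment (limma F test, adjusted p = 0.226), where 0.171% of all features passed. The serum groups did not pass the same test for any of the 7 genes (adjusted p 0.424 to 0.875, limma), and 0.0597% of all features did.

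Taken relative to the mean of the T cell list on the same array, Cxcr4, Ccr7 and Lef1 stood higher in the OA groups at every time but 4 h. Klf2 did so at all 6 times. At 1 h, Cxcr4 lay at -2.58 to -2.02 in serum arrays and at -1.61 to -1.34 in OA arrays. Its groups no longer overlapped, which held in this direction for 14.8% of all features and also for Ccr7. At 1.5 h the arrays of Cxcr4 overlapped on this scale, while all OA arrays of Ccr7 lay above its serum arrays (10.4% of all features). At 18 h the OA arrays of both genes lay above their serum arrays (8.7%). The Cxcr4 group means of serum and OA were -2.14 and -1.17 at 18 h, and -2.69 and -2.79 at 4 h. On this scale the mean Cxcr4 difference over the 6 times was 0.62 (limma, adjusted p = 0.0691). In this mean 612 features (2.44%) were called, 605 of them higher, against 1 on the percentile scale.

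**Figure D2:**
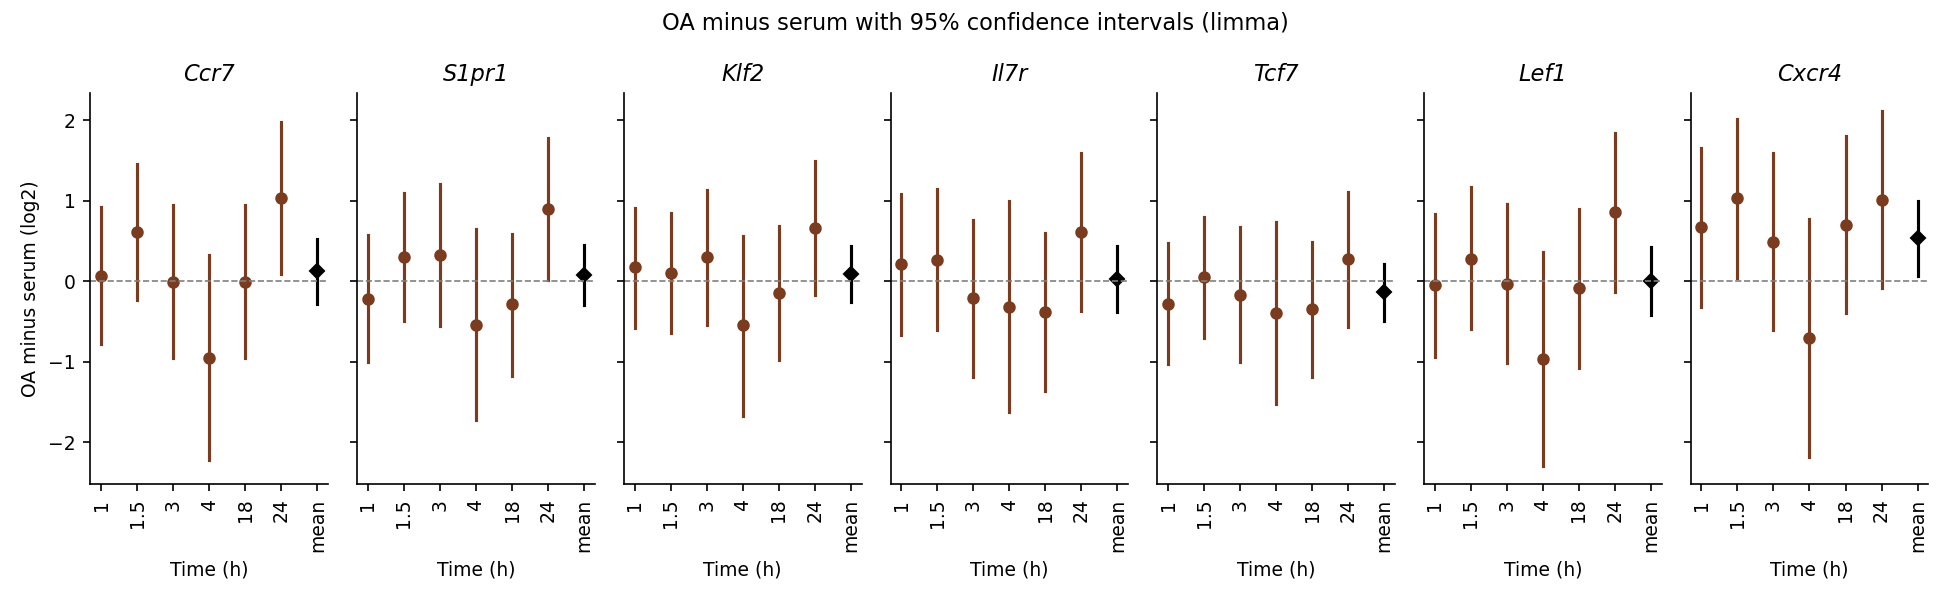
OA minus serum difference (log2) with its 95% interval from limma for each gene at each of the 6 times and as the mean of the times. The Cxcr4 mean of 0.53 lies above 0 with an interval of 0.07 to 1.00, and at 24 h the intervals of Ccr7 and S1pr1 start just above 0.

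On the percentile scale, the trafficking receptor Ccr7 showed no constant difference over the day. At 1 h it stood at 6.41, 6.72 and 6.56 in serum arrays and 6.22, 6.93 and 6.74 in OA arrays. At 1.5 h the serum arrays gave 6.27, 5.89 and 5.43 and the OA arrays 6.31, 6.24 and 6.88. At 3 h they gave 7.39 and 6.73 against 7.24, 6.82 and 7.11. Arrays of both treatments overlapped at all of these times. At 4 h the serum array had 6.94 and the OA arrays 6.33 and 5.65, and at 18 h the serum arrays had 6.71 and 6.70 and the OA arrays 7.08, 6.89 and 6.11. At 24 h serum arrays had 4.86 and 6.88 and OA arrays 7.31, 6.65 and 6.75. One serum array lay below everything else and the other among the OA arrays. The differences were 0.07, 0.61, -0.01, -0.95, -0.01 and 1.03 ± 0.46 (95% interval at 24 h 0.09 to 1.98, adjusted p = 0.0831, limma).

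The egress receptor S1pr1, like every other gene of the set except Cxcr4, had its highest difference at 24 h. At 24 h serum arrays stood at 2.54 and 3.92 and OA arrays at 4.36, 3.97 and 4.04, with no overlap. The difference was 0.89 ± 0.43 (95% interval 0.01 to 1.78, adjusted p = 0.106, limma). At 4 h the serum array stood at 3.88 and the OA arrays at 3.44 and 3.24 (difference -0.54). At 4 h all OA arrays thus lay below the serum array, as for 39.9% of all features, and at 24 h above both, as for 25.8%. At 1 h the serum arrays stood at 3.9, 4.19 and 4.12 and the OA arrays at 3.56, 3.97 and 4.02. At 1.5 h the serum arrays stood at 3.93, 3.6 and 3.00 and the OA arrays at 4.00, 3.64 and 3.78. The low serum value at 1.5 h is the third array remarked on above. At 3 h the serum arrays stood at 4.29 and 3.54 and the OA arrays at 4.16, 4.02 and 4.53. At 18 h the serum arrays stood at 4.15 and 4.27 and the OA arrays at 4.76, 3.92 and 3.06. The differences at 1, 1.5, 3 and 18 h were -0.22, 0.30, 0.33 and -0.29, and arrays of both treatments overlapped at each of these times. The highest S1pr1 array was OA 18 h replicate 1 (4.76) and the lowest serum 24 h replicate 1.

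Klf2, which maintains S1pr1 in resting T cells, had its lowest levels in 2 arrays of opposite treatment. Serum 24 h replicate 1 and OA 4 h replicate 2 both stood at 5.45 at 2 decimals. At 24 h the other serum array had 6.88 and the OA arrays 6.59, 6.80 and 7.09, and the difference was 0.66 ± 0.40 (adjusted p = 0.198, limma). At 4 h the serum array had 6.36 and the OA arrays 6.16 and 5.45, for a difference of -0.55. Elsewhere the 2 treatments overlapped. At 1 h serum arrays gave 6.17, 6.54 and 7.25 and OA arrays 6.63, 6.99 and 6.83, and at 1.5 h serum arrays gave 6.60, 6.73 and 6.16 and OA arrays 6.66, 6.35 and 6.78. At 3 h serum arrays gave 6.82 and 6.38 and OA arrays 6.73, 6.98 and 6.97, and at 18 h serum arrays gave 6.63 and 7.18 and OA arrays 7.06, 6.99 and 6.22. The differences at 1, 1.5, 3 and 18 h were 0.17, 0.10, 0.30 and -0.15, and none passed the test.

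The survival receptor gene Il7r was the only gene of the 7 whose arrays overlapped between the treatments at all 6 times. At 1 h serum arrays had 3.02, 3.65 and 3.63 and OA arrays 2.81, 4.12 and 4.00. At 1.5 h serum arrays had 3.96, 3.65 and 3.14 and OA arrays 3.86, 3.99 and 3.69. At 3 h serum arrays had 4.02 and 4.19 and OA arrays 3.91, 4.22 and 3.54. The OA arrays reached both above and below the serum arrays at 1 and 3 h. The serum 4 h array stood at 4.33 and the OA arrays at 4.41 and 3.62. At 24 h serum arrays had 2.40 and 4.05 and OA arrays 3.86, 3.9 and 3.75. At 18 h serum arrays had 3.74 and 3.75 and OA arrays 4.02, 3.48 and 2.61. The lowest arrays of either treatment were from the next day. The differences over the 6 times were 0.21, 0.26, -0.21, -0.32, -0.38 and 0.61 ± 0.47 (adjusted p at 24 h 0.312, limma).

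The T cell factor gene Tcf7 had a mean difference over the 6 times of -0.14 ± 0.17 (95% interval -0.50 to 0.21, adjusted p = 0.640, limma), which did not differ from 0 beyond its error. At 1 h serum arrays stood at 4.08, 4.12 and 3.72 and OA arrays at 3.26, 4.02 and 3.80. At 1.5 h serum arrays stood at 4.34, 3.68 and 3.44 and OA arrays at 3.89, 3.91 and 3.81. The OA arrays lay inside the serum range at 1.5 h and reached below it at 1 h. At 3 h serum arrays stood at 4.39 and 4.04 and OA arrays at 4.34, 3.94 and 3.86. At 18 h serum arrays stood at 3.81 and 3.77 and OA arrays at 4.08, 3.42 and 2.82, the last being the lowest Tcf7 level of all arrays. At 24 h serum arrays stood at 2.91 and 4.34 and OA arrays at 4.19, 3.96 and 3.53, so that the OA arrays lay between the 2 serum arrays, for a difference of 0.27. At 4 h the serum array stood at 3.61 and the OA arrays at 3.35 and 3.07, for -0.40. The dimmer probe, separated from the other by 564 bases, gave 1.5 in the serum 4 h array and -0.42 and -0.54 in the OA arrays, a difference of -1.98 ± 0.78 (adjusted p = 0.452, limma). Both probes correlated at r = 0.861 over the 30 arrays. Neither probe was called at 4 h. At 24 h the dimmer probe gave -0.21 where the brighter gave 0.27.

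Lef1, the HMG box factor related to Tcf7, had the widest range of group means after Cxcr4. The serum 4 h array stood highest at 6.37 and the OA 4 h arrays at 5.75 and 5.04, for a difference of -0.97. At 24 h serum arrays stood at 4.08 and 5.70 and OA arrays at 6.2, 5.42 and 5.62, for 0.86 ± 0.48 (adjusted p = 0.161, limma). The low serum array lay below all OA arrays and the other among them. At 1 h serum arrays stood at 5.56, 5.58 and 5.72 and OA arrays at 4.86, 6.01 and 5.83. At 1.5 h serum arrays stood at 5.56, 5.66 and 4.84 and OA arrays at 5.74, 5.20 and 5.98. At 3 h serum arrays stood at 5.83 and 6.17 and OA arrays at 5.67, 6.07 and 6.18. Arrays of both treatments covered much the same range at these times. At 18 h serum arrays stood at 5.51 and 5.47 and OA arrays at 6.26, 5.22 and 4.74. The differences at 1, 1.5, 3 and 18 h were -0.05, 0.28, -0.03 and -0.09. The junction probe, 187 bases away and correlated at r = 0.875, gave 0.56 at 24 h (adjusted p = 0.311) and, at 3 h, -0.63 with serum arrays at 5.59 and 5.86 above OA arrays at 4.94, 5.24 and 5.11 (adjusted p = 0.715, limma). The first probe did not show this separation at 3 h.

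The 12 group means could be ordered only loosely. From highest to lowest group mean, Ccr7 ran from serum 3 h to serum 1.5 h over 1.2 log2, S1pr1 from OA 3 h to serum 24 h over 1.01, and Klf2 from serum 18 h to OA 4 h over 1.1. Il7r ran from serum 4 h to serum 24 h over 1.1 and Lef1 between the same groups over 1.48. Tcf7 ran from serum 3 h to OA 4 h over 1.00, and Cxcr4 from OA 1.5 h to OA 4 h over 1.92. Of the 11 pairs of neighbours in each order, the arrays were apart in 2 for Il7r, in 1 for Lef1 and in none for the other 5 genes. The median SD within a group was 0.252 for S1pr1 and Tcf7, 0.309 for Klf2, 0.358 for Il7r, 0.369 for Ccr7, 0.404 for Lef1 and 0.567 for Cxcr4.

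At 4 h all 7 differences lay below 0, where 55.7% of all features did, and the groups of 6 genes did not overlap, which held in that direction for 39.9% of all features. The differences ran from -0.97 to -0.32 around a median of -0.55, with adjusted p from 0.504 to 0.814 (limma). The median was -0.17 over all features and -0.45 over features well above background on at least 15 arrays. The sign was not stable under other scalings. Relative to the T cell list, S1pr1, Klf2, Il7r and Tcf7 lay at 0.07, 0.05, 0.29 and 0.21, while Ccr7, Lef1 and Cxcr4 stayed at -0.35, -0.36 and -0.10. With all 14 alternative settings, Cxcr4, Ccr7 and Lef1 stayed below 0 and Il7r, S1pr1, Tcf7 and Klf2 lay above it in 7, 6, 6 and 3. Replicate 2 of OA at 4 h is 1 of the 3 arrays remarked on above. The T cell list stood at 4.55 in the serum array and 3.65 to 4.23 in the OA arrays, the B cell list at 3.24 and 1.97 to 2.86, the monocyte list at 2.93 and 0.34 to 2.14 and the neutrophil list at 5.22 and 3.61 to 4.02. The erythroid list went the other way, at 5.27 and 5.92 to 7.09, with 8 of 8 genes above 0 and a median difference of 1.48. The part of these lists in the result was not tested.

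At 24 h all 7 differences lay above 0, where 49.4% of all features did. Their median was 0.86, against -0.03 over all features and 0.5 over features well above background on at least 15 arrays. The 7 genes are among these better detected features, of whose calls 79% were higher. However, Tcf7 lay below 0 in 8 of 14 alternative settings, Il7r in 4, Klf2 in 2 and Ccr7, S1pr1 and Lef1 in 1 each. Of the features called at 24 h, 44.3% were higher, against 20.8% with the median of always detected probes, 58.9% with quantile scaling, 20.1% relative to the T cell list and 54.8% in the authors' values. The median over all features ran from -0.58 to 0.18 under these scalings. Replicate 1 of serum at 24 h was the lowest of all 30 arrays for 6 of the 7 genes, and the second lowest for Tcf7, after an OA array of 18 h at 2.82. Without this array the differences were 0.02 for Ccr7, 0.20 for S1pr1, -0.06 for Klf2, -0.22 for Il7r, -0.45 for Tcf7, 0.05 for Lef1 and 0.22 for Cxcr4, and 38 features (0.151%) were called in place of 7447 (29.6%). Without the other serum array, replicate 2, the serum group is the low array alone, whose spread is assumed to be that of the other groups. In that fit 6 genes rose, Ccr7 by 2.05, S1pr1 by 1.58, Klf2 by 1.38, Il7r by 1.43, Lef1 by 1.66 and Cxcr4 by 1.80 (adjusted p 0.00249 to 0.0277, limma), while Tcf7 at 0.99 did not pass (adjusted p = 0.0649). There 12929 features (51.5%) were called, 29.3% of all features being higher. Leaving out replicate 1 of OA at 24 h left 137 features called.

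**Figure D3:**
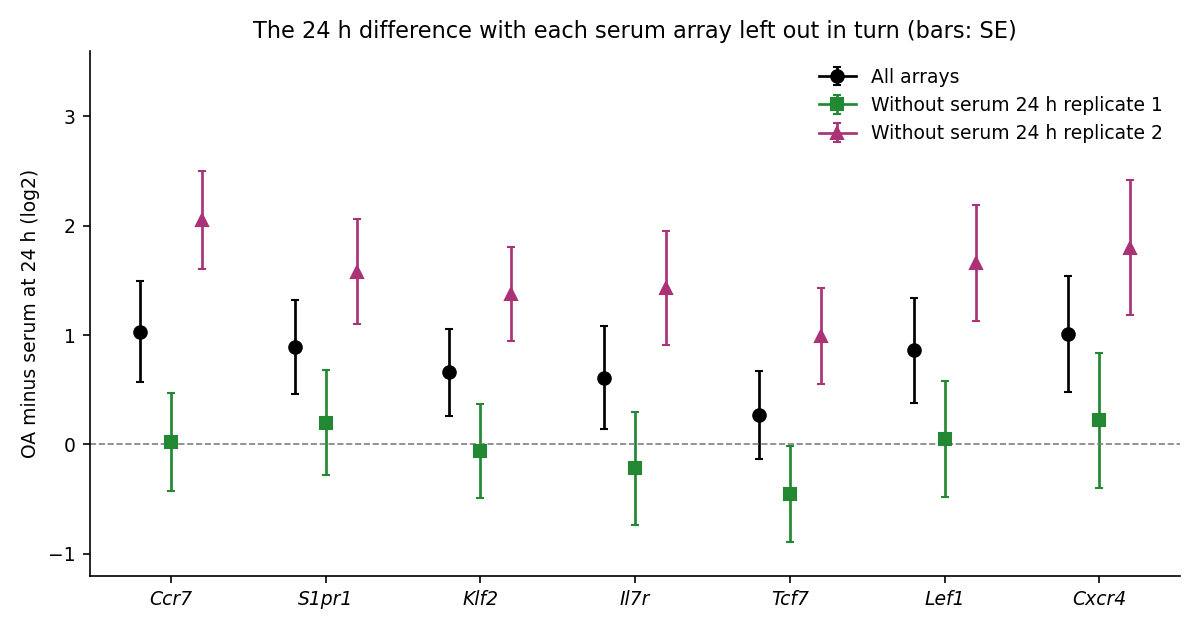
OA minus serum difference at 24 h (log2) with its standard error for each gene, with all arrays and with each of the 2 serum arrays left out. Without serum replicate 1 the 7 differences lie between -0.45 and 0.22, and without serum replicate 2 between 0.99 and 2.05.

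The same array was low in markers of most cell types. At 24 h the T cell list stood at 3.32 and 4.66 in the serum arrays and 4.47 to 4.70 in the OA arrays. The B cell list stood at 2.20 and 3.69 against 3.96 to 4.21, and the monocyte list at 0.03 and 1.28 against 2.76 to 3.04. The neutrophil list overlapped, at 3.85 to 4.16 against 3.18 to 5.07. The erythroid list was high in the same array, at 8 against 6.09 in the other serum array and 5.69 to 7.33 in the OA arrays. These values move with the 7 genes, and their part in the result was not tested. With the intergenic signal as a covariate, the 24 h differences lay between -0.54 and 0.06. Both serum arrays of 24 h were on 1 slide that held no OA array of 24 h, so no difference within a slide exists there. With the slide as a block, Ccr7 stood at 0.56, S1pr1 at 0.53, Klf2 at 0.53, Il7r at 0.35, Tcf7 at -0.05, Lef1 at 0.72 and Cxcr4 at 0.57, none called, and 9 features were called in all.

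Other genes of these pathways were read from lists, which are described by their counts because they were chosen with earlier results known. The homing and egress list holds 29 measured entries. Name matching put Noct (0.15 at 24 h), which is not a homing gene, in the place of Ccr4, which has no value here. At 24 h, 13.1% of all features rose and 16.5% fell around a median of -0.03. Over features well above background on at least 15 arrays, 18.1% rose around a median of 0.5. Of the 29 entries, 9 rose and none fell, with a median of 0.84. Those with the smallest p were Ccr2, the receptor that brings monocytes out of bone marrow (2.11, adjusted p = 0.0175), Sgpl1, the lyase that degrades sphingosine-1-phosphate (1.44, adjusted p = 0.0217), the integrin subunit Itga4 (1.42, adjusted p = 0.0220) and the follicle receptor Cxcr5 (1.53, adjusted p = 0.0238; limma for all). Of 20 naive and quiescence transcription factors, 5 rose and none fell (median 0.72). Those with the smallest p were Klf4 at 2.40, Klf6 at 1.52, Klf3 at 1.3 and Tob1 at 1.41. Tob1 was well above background on 1 of 2 serum arrays. The list was set up with several Krüppel-like factors, of which Klf13 stood at 0.61. Of 13 genes of interleukin-7 signalling, 2 rose (median 0.82): the survival factor Mcl1 by 1.15 and the cytokine signal inhibitor Socs3 by 1.3. Of 16 TCF/LEF partners and targets, 3 rose and 1 fell, around a median of -0.01. The 3 were Bcl9 and Pygo2, co-activators of beta-catenin, at 1.69 and 1.24, and the kinase Gsk3b at 1.38, with Bcl9 well above background on 1 of 2 serum arrays. The gene that fell, Nkd1, an inhibitor of Wnt signalling, was not well above background on any of the 3 OA arrays, so no fold is given. The 2 of 13 and 3 of 16 that rose in the last 2 lists are shares near the 13.1% of all features. Of the cell type markers, 1 of 17 T cell, 6 of 12 B cell, 6 of 10 monocyte and 2 of 7 dendritic cell genes rose. Their medians were 0.62, 1.08, 2.10 and 0.79. None of 8 NK cell, 10 neutrophil, 8 platelet or 8 erythroid genes rose, with medians of 0.91, 0.33, 0.18 and -0.45. Of 12 effector and memory markers 1 rose (median 0.95), and of 12 glucocorticoid-responsive genes 2 rose (median 1.07). The part of these markers in the other lists was not tested. Under the other scalings the homing list had 2 to 7 calls, all higher, with medians of 0.28 to 0.49, the naive factors had 2 to 4, and the median of TCF/LEF genes ran from -0.56 to 0.32. With normexp 18 entries of the homing list were called, where 20.7% of all features were called higher. With the slide as a block, with array weights or with the intergenic covariate, no member of the 4 pathway lists was called (limma).

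Without replicate 1 of serum at 24 h, none of these list members was called (limma). The medians were 0.22 for the homing list, 0.20 for naive factors, 0.18 for interleukin-7 signalling and -0.15 for TCF/LEF genes. Ccr2 then stood at 1.41 (adjusted p = 0.508) and Klf4 at 2.06. At 4 h none was called, and 28 of the 29 entries of the homing list, Noct among the 29, lay below 0 with a median of -0.63. Of all features 55.7% lay below 0 there, and the median was -0.45 over features well above background on at least 15 arrays. All 12 B cell, 10 monocyte and 10 neutrophil genes lay below 0 as well, and all 8 erythroid genes above it. In the mean of the 6 times none of the list members was called. The medians were 0.10 for the homing list, 0.08 for naive factors and 0.15 for interleukin-7 signalling.

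Differences between the first hours (1 to 4 h) and the next day (18 and 24 h) were also tested. In serum mice, Lef1 stood 5.19 on the next day and 5.83 before, a difference of -0.64 ± 0.32 (adjusted p = 0.513, limma), and the other 6 genes lay between -0.37 and 0.01. In OA mice the 7 genes lay between -0.24 and 0.26. Of all features, 0.0398% rose and 0.115% fell on the next day in serum mice, and 0.119% and 0.0438% in OA mice. The OA difference on the next day minus that of the first hours was 0.58 for Ccr7 and Lef1 and 0.49 for Cxcr4. It was 0.33 for S1pr1 and 0.13 to 0.25 for Il7r, Tcf7 and Klf2. Adjusted p ran from 0.462 to 0.890 (limma), and a value above 0 held for 54.8% of all features. Serum values of the next day include replicate 1 of 24 h (Lef1 4.08), and those of the first hours the single array of 4 h. Without that replicate, the 24 h difference was 0.02 for Ccr7 and 0.05 for Lef1. Among the genes of the 4 pathway lists, the chemotactic receptor Gpr183 rose in OA mice by 1.16 (adjusted p = 0.0134, limma), and its difference in serum mice was 0.67 (adjusted p = 0.332, limma). Socs3 fell in serum mice by 1.76 (adjusted p = 0.0356, limma). No gene of these lists was called in the test of a difference between the treatments.

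Across the 30 arrays, which share slides and the same percentile scaling, the 21 pairs of the 7 genes correlated at r = 0.239 to 0.859 (median 0.609). Ccr7 and S1pr1 were the most alike at 0.859, followed by Ccr7 and Lef1 at 0.798 and Il7r and Lef1 at 0.788. Cxcr4 and Il7r were the least alike at 0.239. Without the 3 arrays remarked on above the range was -0.053 to 0.699 (median 0.400), and within groups it was 0.420 to 0.856 (median 0.725). The correlations are descriptions and carry no test.

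The same 7 genes differed in what they followed. With the mean of the T cell list, Lef1 correlated at 0.873, Ccr7 at 0.846, Il7r at 0.786, S1pr1 at 0.784 and Tcf7 at 0.764, whereas Klf2 stood at 0.650 and Cxcr4 at 0.325. Without the 3 arrays these were 0.785, 0.683, 0.726, 0.584, 0.662, 0.342 and -0.0922. Klf2 and Cxcr4 both followed the B cell list more closely than the T cell list. Klf2 correlated at 0.736 with the B cell list and 0.636 with the monocyte list (0.477 and 0.233 without the 3 arrays), and at -0.809 with the intergenic signal (-0.534). Cxcr4 correlated at 0.710 with the B cell list and 0.666 with the monocyte list (0.513 and 0.387 without the 3 arrays), and at -0.713 with the intergenic signal (-0.474). The other 5 genes correlated at 0.0987 to 0.576 with the B cell list and 0.313 to 0.513 with the monocyte list. The intergenic signal was not particular to Klf2 and Cxcr4. With it Ccr7 correlated at -0.737, S1pr1 at -0.725, Lef1 at -0.601, Tcf7 at -0.479 and Il7r at -0.477 over the 30 arrays.

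**Figure D4:**
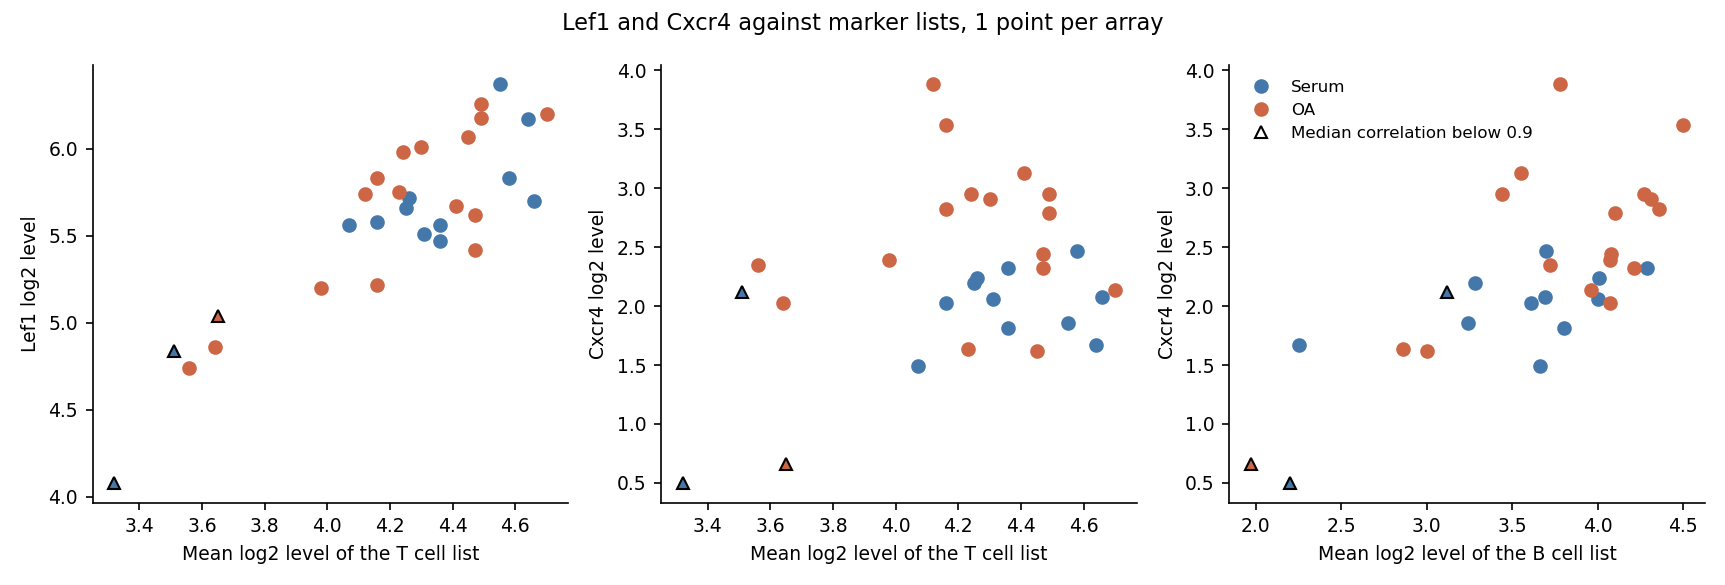
Log2 level of Lef1 against the mean log2 level of the T cell list (left), and of Cxcr4 against the T cell list (middle) and the B cell list (right), with 1 point per array coloured by treatment and triangles for the 3 arrays of low correlation. Lef1 followed the T cell list (r = 0.873) more closely than Cxcr4 did (r = 0.325), and the lowest point in the left and middle panels is replicate 1 of serum at 24 h.

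**Figure D5:**
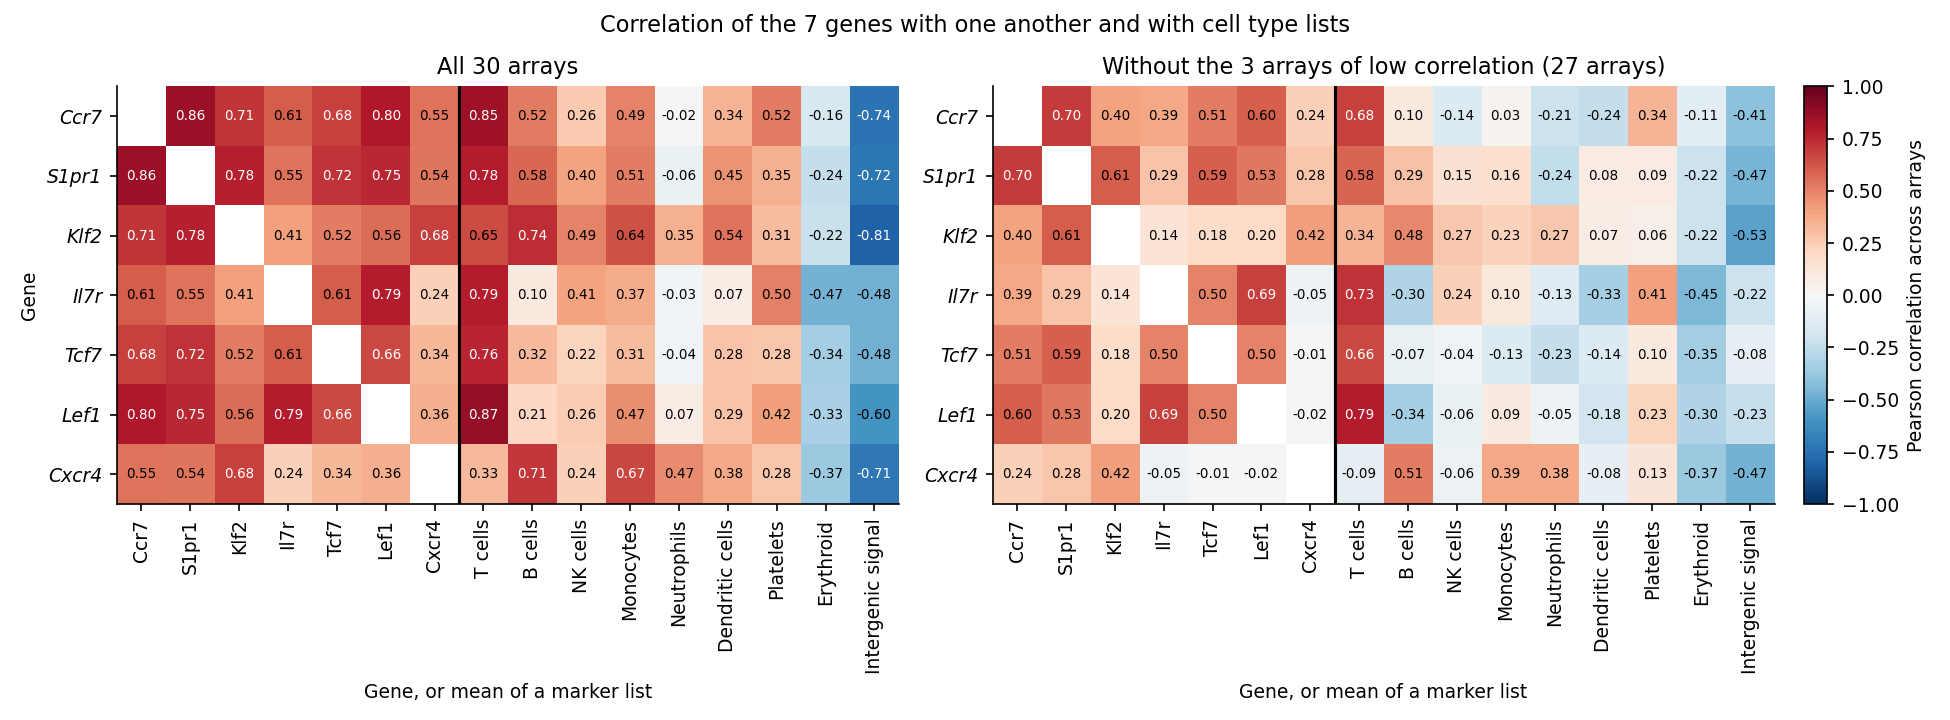
Pearson correlation over 30 arrays, and over 27 without the 3 arrays of low correlation, between the 7 genes and with the marker lists. Cxcr4 stands apart from the other genes in its correlation with the T cell list (0.325 over 30 arrays).

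The most similar profiles among 15848 symbols were, for Ccr7, Sesn1 (r = 0.920), Xylt2 (0.918) and Sbf1 (0.913), and for S1pr1, Mllt6 (0.916), Tpr (0.913) and Sesn3 (0.883). For Il7r they included F2r (0.888) and Txk (0.860), and for Tcf7 they were Il6st (0.841), Satb1 (0.821) and Rictor (0.820). Klf2 was most like Commd5 (0.909), Dtymk (0.907) and Mrps33 (0.904), and Lef1 most like Fbrsl1 (0.929), Tecpr1 (0.925) and Celsr1 (0.915). Cxcr4 was most like Nfkbid, an inhibitor of NF-kB (0.864), the survival factor Mcl1 (0.856) and the small GTPase Rala (0.846). Without the 3 arrays, the first of each ran from 0.769 for Il6st to 0.866 for Fbrsl1. All are over 30 arrays, and the likeness was chosen as the highest of many.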

How the data were processed

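PBMC RNA of 30 mice was measured on 30 Agilent 1-colour arrays. Per the file headers, Feature Extraction 10.5.1.1 read 62976 spots, and the deposited intensity values are linear, with the processed signal corrected for background and not normalized between arrays. The authors' deposited table, in log2 units as judged against the scanner files, was used as an alternative. Over 55681 probes the median of a column was 5.37 to 5.39, and each of the 30 columns matched its array best. Its deviations followed quantile-normalized normexp signals more closely (median r 0.980) than processed signals (0.810). How it was scaled and centred is unknown here.

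Control spots (3671) and outlier spots (91 to 1408 per array) were left out. The log2 signal minus the 75th percentile of the array was used. Probes well above background on at least 3 arrays were kept (35768), a gene took its brightest kept probe, and 25137 features were tested. Probe names came from the files and from RefSeq tables of GRCm38.p6. A model with 12 groups was fitted with limma 3.58.1 in R 4.3.3 (18 residual degrees of freedom). Adjusted p values are Benjamini-Hochberg over all features, called at 0.05. The number of arrays limits precision. Each array was taken as 1 mouse, and p values measure the spread between arrays of a group. The 75th percentile signal ranged from 40.2 to 152. Genes named are the 7 members, for each the 3 most similar symbols (1 of them is not reported here), and up to 4 called members of each context list, smallest p first. The 7 genes and all lists were chosen with earlier results of these data known. The scripts were tested on simulated data, with 100 changed features of each size among 24189. At 24 h, 0% of simulated log2 changes of 1 and 25% of changes of 2 were called. In the data 29.6% of features were called at 24 h, far more than were changed in the simulation. The adjusted p therefore cuts at another place there, and the simulated 24 h shares do not carry over to the data. In the mean of the 6 times the simulated shares were 54% and 90%.

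Alternatives were the median of always detected probes, quantile scaling, T cell list scaling, normexp, the authors' values, other filters, the mean of probes, a slide block, a replicate block, array weights, an intergenic covariate, left-out arrays, and a slide block with T cell scaling, the last chosen after seeing the data. Spots were scanned on 5 slides over 2 days. Per the file headers 1 slide with 5 OA arrays was scanned on the second day.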

Additional observations from a re-analysis of the deposited data

Results flagged for a closer look

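S1pr1 lay above both serum arrays in all OA arrays at 24 h (difference 0.89) and below the single serum array at 4 h (-0.54), which held for 25.8% and 39.9% of all features. Cxcr4 lay above all serum arrays in all OA arrays at 1.5 h (1.03), 18 h (0.70) and 24 h (1.01), and below the serum array at 4 h (-0.71). At 1.5 and 18 h this held for 16.7% and 2.68% of all features. Without serum 24 h replicate 1 the 24 h differences were 0.20 for S1pr1 and 0.22 for Cxcr4. These genes are given here because their arrays stood fully apart in opposite directions at different times. The F test of an OA effect that differs between times gave adjusted p = 0.503 for S1pr1 and 0.633 for Cxcr4 (limma), and the difference between single pairs of times was not tested. The 4 h direction rests on 1 serum array, and for S1pr1 it turned to 0.07 relative to the T cell list.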

How the results depend on the processing

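Of 566 counts of called members over all alternatives, 561 equalled the reported 0. Of 3052 single differences, 9 passed an adjusted p of 0.05 under an alternative (limma), and another 69 moved by more than the SD within groups, 38 of them turning sign. Of the 69, 38 were at 4 h, 9 at 24 h, 8 at 1 h, 7 at 3 h, 6 at 1.5 h and 1 in the next day minus the first hours. At 24 h, normexp called 2 members (Ccr7 1.48, adjusted p = 0.0252; S1pr1 1.28, adjusted p = 0.0338, limma), where 20.7% of all features were called higher. Array weights called 1 at 1 h (Cxcr4 0.85, adjusted p = 0.0326, limma), where 34.8% of all features were called, 15.6% higher, and 1 (Cxcr4) in the test that OA groups differ between times, where 16.5% were called. Leaving out 1 array gave 0 to 6 called members at 24 h and 0 to 1 for the OA effect differing between times, the highest of both without serum 24 h replicate 2, where 51.5% and 8.49% of all features were called. The cause was not tested. The count of all features called at 24 h was 7447, and it was 5745 under quantile scaling, 6561 with always detected probes, 4327 relative to the T cell list, 10773 with normexp, 4837 in the authors' values, 13120 without a filter, 4004 with at least 15 arrays, 9 with a slide block, 2 with the intergenic covariate, 1 with array weights, 47 without the 3 arrays and 137 without OA 24 h replicate 1. Within slides, values were given without a test.

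With the replicate block, 0 members were called in every result and 5092 features at 24 h. The replicate numbers did not pair the arrays: over 12 pairs the correlation of deviations ran from -0.527 to 0.425, with 4 over 0.1. The number of arrays (1 to 3 a group) limits what could be seen, and no probe of the 7 genes was near background.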
